A study of Mus musculus with 16 samples.

Results

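The genes of oxidative phosphorylation were followed in mouse liver by the genome that encodes them and by the complex they belong to. Members were the rows of the count tables whose mouse symbol begins with Nduf, Uqcr, Cox4 to Cox8 or Atp5, or is Sdha, Sdhb, Sdhc, Sdhd, Cycs or Cyc1, together with the protein-coding mitochondrial genes. Of 55416 rows, 122 matched these symbols. Leaving out 13 pseudogene or non-coding rows gave 109 members, 96 from the nuclear genome and 13 from the mitochondrial genome. Complex I held 43 members, with 8 further assembly factors, complex II held 4, complex III 10, complex IV 23, complex V 20, and cytochrome c was a single gene. The rule uses symbols and no measured value, though these genes were taken up with earlier results of these data known.

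The livers came from 16 C57BL/6J wild-type mice aged 8 weeks, 4 in each of 4 groups. Each mouse was injected into a tail vein with a virus, either a control one (Ad-CTRL) or an adenovirus that overexpresses FAT10 (Ad-FAT10), a ubiquitin-like protein encoded in the mouse by Ubd. After 4 days each mouse was gavaged with pemafibrate (Pema), a drug that selectively activates the nuclear receptor PPARα, at 1 mpk, or with the CMC vehicle, 18 h and 5 h before the liver was taken after a 5 h fast. Groups are named by virus and gavage, such as Ad-CTRL CMC or Ad-FAT10 Pema, and all 16 mice carried an adenovirus. The labels used here do not name the promoter that drives FAT10, nor a measure of vector load, so the inserted gene and the amount of vector cannot be told apart.

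As background, oxidative phosphorylation passes electrons from NADH through complex I, and from succinate through complex II, to ubiquinone, then through complex III and cytochrome c to oxygen at complex IV. The proton gradient built on the way drives ATP synthesis by complex V. Most subunits are encoded in the nucleus and imported. A few core subunits of complexes I, III, IV and V are encoded by the mitochondrial DNA, which is transcribed by its own polymerase, and complex II is wholly nuclear. In liver the chain takes up the electrons released by fatty acid oxidation, the pathway that PPARα is best known for switching on.

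Libraries held 18663498 to 28898229 counts, of which the members took 4.39% to 9.86%. Levels are normalised counts in CPM, with each library total corrected by TMM, a factor that centres most genes between libraries, and 3 counts corresponded to 0.104 to 0.161 CPM. A member was called when the adjusted p of edgeR's quasi-likelihood test over all 14770 tested genes was under 0.05. Among Ad-CTRL libraries Ubd ranged from 8.64 to 15.2 CPM with CMC and from 14.2 to 47.8 with Pema, and among Ad-FAT10 libraries from 110.5 to 339 with CMC and from 391 to 546 with Pema (mouse and vector transcripts of the gene cannot be told apart), higher in all 8 Ad-FAT10 libraries than in all 8 Ad-CTRL libraries. TMM factors averaged 0.919 (CMC) and 0.868 (Pema) with Ad-CTRL, and 1.125 (CMC) and 1.116 (Pema) with Ad-FAT10. Scaling by library totals alone moved the median log2 change of all tested genes from -0.01 to 0.28 (Ad-FAT10 against Ad-CTRL under CMC) and from -0.02 to 0.34 (under Pema). Changes of members named for those 2 comparisons are therefore given with both scalings, while CPM values are with TMM. In whole liver, fewer cells of a type and less RNA per cell cannot be told apart.

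Summed levels are given by genome. The 96 nuclear members summed to 12028, 13525, 13704 and 13757 CPM in Ad-CTRL CMC (13253 ± 823, SD, n = 4). Their sums were 15838 to 16833 CPM in Ad-CTRL Pema (16195 ± 438), 9544.5 to 10486 in Ad-FAT10 CMC (10120 ± 451) and 11331 to 15707 in Ad-FAT10 Pema (13234 ± 1817). Every Pema library lay above every CMC library given the same virus.

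The 13 mitochondrial members summed to 61505 to 94233 CPM in Ad-CTRL CMC (77620 ± 13364) and to 63940 to 76875 in Ad-CTRL Pema (70301 ± 5497), which overlapped. The sums were 42743 to 47908 CPM in Ad-FAT10 CMC (45005 ± 2359) and 26285 to 54398 in Ad-FAT10 Pema (39561 ± 11564), so with TMM all 8 Ad-FAT10 libraries lay below all 8 Ad-CTRL libraries. With library totals alone the 2 viruses were separate under CMC and overlapped under Pema. These members took 4.53% to 5.51% of the counts in Ad-FAT10 CMC and 5.69% to 8.61% in Ad-CTRL CMC. Under Pema they took 3.07% to 5.87% with Ad-FAT10 and 5.38% to 7.06% with Ad-CTRL. Ad-FAT10 Pema replicate 3 was the lowest of its group in both sums and replicate 1 the highest.

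The quotient of the 2 sums does not depend on library scaling. Mitochondrial counts per nuclear count were 6.88, 5.61, 4.55 and 6.44 in Ad-CTRL CMC (5.87 ± 1.03) and 4.57, 4.31, 3.98 and 4.49 in Ad-CTRL Pema (4.34 ± 0.263). They were 4.55, 4.29, 4.57 and 4.38 in Ad-FAT10 CMC (4.45 ± 0.140) and 3.46, 2.90, 2.32 and 3.09 in Ad-FAT10 Pema (2.94 ± 0.477). All 4 Ad-FAT10 Pema libraries lay below the 12 others, while the lowest Ad-CTRL CMC library overlapped Ad-CTRL Pema and Ad-FAT10 CMC. Poly(A) selection sets how much mitochondrial RNA enters a library, so the quotient describes these libraries and not RNA molecules per cell.

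**Figure D1:**
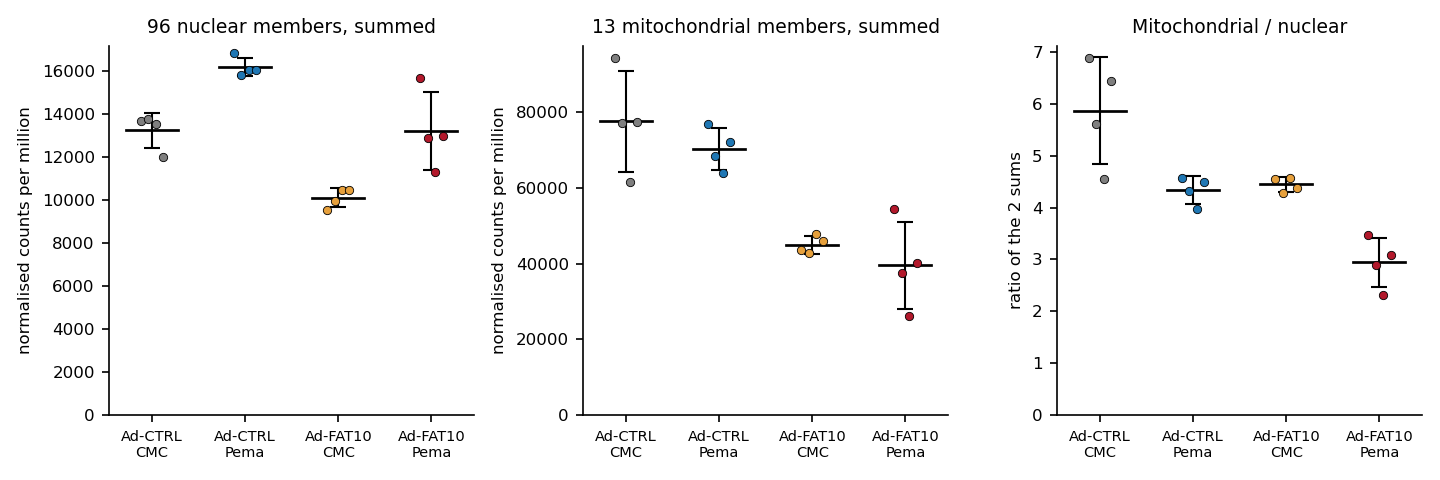
Summed normalised CPM of the 96 nuclear members (left), of the 13 mitochondrial members (middle) and the ratio of the 2 sums (right), by group; points are libraries, horizontal lines the mean of 4 and bars the SD. Nuclear sums are higher in each Pema group than in its CMC group, and mitochondrial sums are lower in Ad-FAT10 with this TMM scaling. With library totals alone the mitochondrial shares of the 2 viruses overlap under Pema and not under CMC. The ratio, which has no scaling, is lowest in Ad-FAT10 Pema (2.32 to 3.46).

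Nuclear genes of the chain were higher with pemafibrate in both virus groups. In Ad-FAT10 every Pema library also held more Ubd than every CMC library (391 to 546 against 110.5 to 339 CPM). The drug and the level of Ubd cannot be told apart there. Of the 90 nuclear members tested, 28 rose and 2 fell in Ad-CTRL, where 16.2% of all tested genes rose, 14.4% fell and 30.6% were called either way. In Ad-FAT10, 54 rose and 0 fell, where 12.9% of all genes rose, 12.5% fell and 25.4% were called. At an unadjusted p under 0.05 the Ad-FAT10 count of falls was also 0, and DESeq2 gave 0. The median log2 change of the tested nuclear members was 0.21 in Ad-CTRL and 0.40 in Ad-FAT10, beside -0.01 in both for all tested genes. The 2 comparisons share no library. In both, 24 nuclear members rose, a count that was not set beside the same count over all genes. Without Ad-FAT10 Pema replicate 1, the library with the highest sums, 35 rose in Ad-FAT10.

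None of the 12 tested mitochondrial members was called in either Pema comparison, by edgeR or DESeq2, and 0 of 12 had an unadjusted p under 0.05. Their median log2 change was -0.17 in Ad-CTRL and -0.18 in Ad-FAT10. Leaving out 1 library at a time it ran from -0.28 (without Ad-CTRL CMC replicate 3) to -0.07 (without Ad-CTRL CMC replicate 1) in Ad-CTRL. In Ad-FAT10 it ran from -0.37 (without Ad-FAT10 Pema replicate 1) to -0.02 (without Ad-FAT10 Pema replicate 3). Without Ad-FAT10 Pema replicate 1, mt-Nd5 (-0.55) and mt-Nd6 (-0.64) fell in Ad-FAT10.

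**Figure D2:**
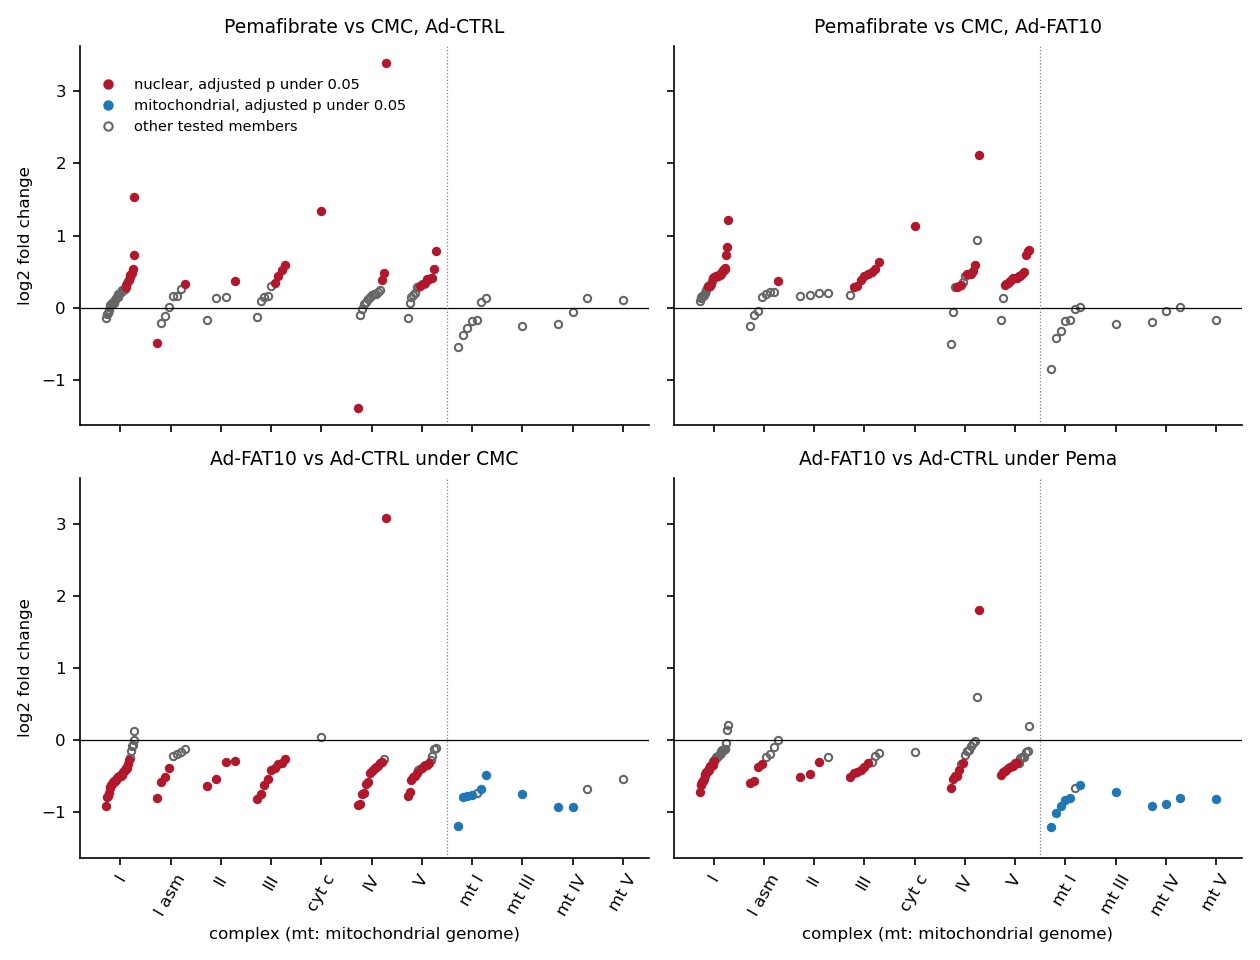
Log2 fold change of each tested member, by complex (x axis; I asm, complex I assembly factors; cyt c, cytochrome c; mt, encoded by mitochondrial DNA) in the 4 comparisons, with TMM scaling; filled points have an adjusted p under 0.05. Nuclear points lie mostly above 0 with pemafibrate and mitochondrial points are open there; the lower panels lie mostly below 0 with this scaling, and library totals alone moved the nuclear median to -0.13 under CMC and to 0.04, the other side of 0, under Pema.

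The largest rises in Ad-CTRL were in Cox6b2, Ndufab1 and Cycs. Ndufab1 encodes the mitochondrial acyl carrier protein, an accessory subunit of complex I that also serves fatty acid and lipoic acid synthesis. It stood at 27.9, 29.7, 24.2 and 22.0 CPM in Ad-CTRL CMC and at 81.6, 63.9, 76.2 and 80.1 in Ad-CTRL Pema. Its Ad-FAT10 CMC libraries held 17.4, 19.04, 20.8 and 21.9 CPM, and its Ad-FAT10 Pema libraries 55.4, 45.003, 42.2 and 41.7. Pema and CMC libraries did not overlap, and the log2 changes were 1.54 ± 0.12 (SE, adjusted p = 2.3e-08) and 1.22 ± 0.12 (adjusted p = 6.1e-07).

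Cycs encodes cytochrome c, the carrier between complexes III and IV. Its level was 101.4, 100.7, 84.1 and 56.9 CPM in Ad-CTRL CMC and 247, 186, 216 and 221 in Ad-CTRL Pema. In Ad-FAT10 it was 78.8, 81.5, 95.5 and 98.0 CPM with CMC and 233, 191, 169.6 and 185 with Pema. The groups were again separate, with log2 changes of 1.34 ± 0.16 (adjusted p = 3.4e-06) and 1.14 ± 0.15 (adjusted p = 3.2e-05). Part of the Cycs transcript (30.3% of its bases) matches another gene, Gm10053, which had 377 counts in all 16 libraries together.

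Cox6b2, a complex IV isoform best known from testis, was near the floor in Ad-CTRL CMC, at 0.293, 0.647, 0.601 and 0.566 CPM. It reached 5.08, 5.08, 6.38 and 6.21 CPM in Ad-CTRL Pema, 2.43, 4.17, 5.35 and 6.18 in Ad-FAT10 CMC, and 25.5, 17.7, 15.6 and 20.7 in Ad-FAT10 Pema. It rose with pemafibrate by 3.40 ± 0.30 log2 units in Ad-CTRL (adjusted p = 1.3e-07) and by 2.12 ± 0.22 in Ad-FAT10 (adjusted p = 1.1e-06). It was also higher in Ad-FAT10 than in Ad-CTRL, by 3.08 ± 0.30 under CMC and 1.80 ± 0.21 under Pema, and by 3.38 and 2.16 with library totals alone. The difference between its 2 pemafibrate changes was -1.28 ± 0.38 (adjusted p = 0.23). Its ubiquitous paralogue Cox6b1 stood at 192 ± 19.3 CPM in Ad-CTRL CMC and 250 ± 9.12 in Ad-CTRL Pema (SD, n = 4), a log2 rise of 0.38 ± 0.12 (adjusted p = 0.019).

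**Figure D3:**
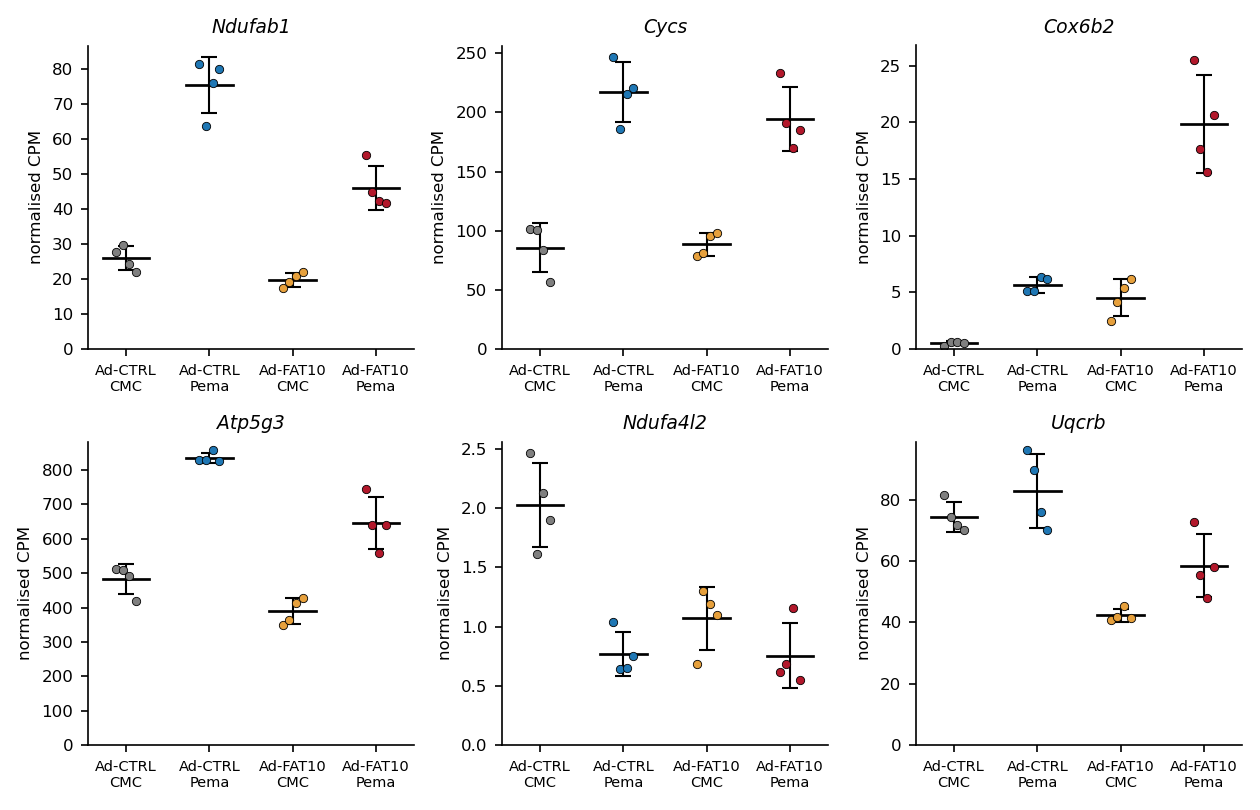
Normalised CPM (each y axis from 0) of 6 nuclear members by group; points are libraries, lines the mean of 4 and bars the SD. Ndufab1, Cycs, Cox6b2 and Atp5g3 are higher with pemafibrate in both virus groups without overlap, Ndufa4l2 is highest in Ad-CTRL CMC, and Uqcrb is lowest in Ad-FAT10 CMC, where its log2 change against Ad-CTRL CMC was -0.81 with TMM and -0.52 with library totals alone.

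Among the nuclear subunits of complex I, 10 of 36 rose in Ad-CTRL and 23 of 36 in Ad-FAT10 with pemafibrate, and 0 fell in either. Of the 7 nuclear core subunits, which hold the flavin and the iron-sulfur centres, 4 and 6 rose. Ndufs1, the largest core subunit, went from 93.5 ± 5.68 to 130.3 ± 14.7 CPM in Ad-CTRL and from 88.7 ± 7.10 to 119.5 ± 14.0 in Ad-FAT10 (log2 0.48 ± 0.10 and 0.43 ± 0.10). Accessory subunits, which scaffold the core, rose for 6 of 29 and 17 of 29, beside 16.2% and 12.9% of all tested genes, so the Ad-CTRL share was near the background. Ndufb3, one of them, rose by 0.74 ± 0.17 (adjusted p = 0.0033) and 0.85 ± 0.17 (adjusted p = 0.0014), and Ndufa3 by 0.47 ± 0.11 and 0.73 ± 0.11. Of the 8 Nduf-named assembly factors, Ndufaf5 rose in Ad-CTRL (0.34 ± 0.12), Ndufaf4 rose in Ad-FAT10 (0.38 ± 0.11) and Ndufaf6 fell in Ad-CTRL (-0.48 ± 0.13).

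Beside 16.2% of all tested genes, 1 of 4 subunits of complex II, succinate dehydrogenase, rose in Ad-CTRL. This was the membrane subunit Sdhd, which went from 180 to 221 CPM in the CMC libraries to 232 to 282 in the Pema libraries (log2 0.38 ± 0.10, adjusted p = 0.0086). In Ad-FAT10, where 25.4% of all tested genes were called, 0 of 4 subunits were, with log2 changes of 0.17 to 0.20. The catalytic subunit Sdha, which carries the flavin, changed by 0.14 ± 0.10 and 0.20 ± 0.10, neither called.

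Of the 9 nuclear members of complex III, 4 rose in Ad-CTRL and 8 in Ad-FAT10, beside 16.2% and 12.9% of all tested genes. Uqcrfs1, the Rieske iron-sulfur protein, stood at 185 to 227 CPM in Ad-CTRL CMC against 297 to 327 in Ad-CTRL Pema, and at 156 to 165 against 201 to 280 in Ad-FAT10. The libraries did not overlap, and the rises were 0.60 ± 0.10 (adjusted p = 0.00016) and 0.54 ± 0.10 (adjusted p = 0.00055). Cyc1, the cytochrome c1 that hands electrons to cytochrome c, rose by 0.43 ± 0.09 and 0.39 ± 0.09, and the small subunit Uqcr10 by 0.53 ± 0.12 and 0.64 ± 0.12. Uqcrq was the one member of the complex called in neither comparison (-0.13 and 0.17).

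Complex IV had 15 tested nuclear members, of which 3 rose and 1 fell in Ad-CTRL, a share of rises near the 16.2% of all tested genes, and 8 rose in Ad-FAT10, beside 12.9%. Cox5a, a matrix-side subunit, rose by 0.48 ± 0.08 (adjusted p = 0.00015) and 0.29 ± 0.08 (adjusted p = 0.012). Ndufa4l2, the paralogue of the complex IV subunit Ndufa4 and known as a hypoxia-induced gene, was the one that fell. It went from 2.46, 1.62, 2.13 and 1.90 CPM in Ad-CTRL CMC to 1.04, 0.641, 0.648 and 0.749 in Ad-CTRL Pema (-1.39 ± 0.27, adjusted p = 0.0007). In Ad-FAT10 the corresponding change was -0.50 ± 0.27 (adjusted p = 0.19), and the difference between the 2 changes was 0.89 ± 0.38 (adjusted p = 0.41). Per kilobase of exon and averaged over all libraries, Ndufa4 stood at 234 CPM per kb and Ndufa4l2 at 1.05. Ndufa4 was not called with pemafibrate (0.06 ± 0.15 and 0.29 ± 0.15).

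For complex V, the ATP synthase, 8 of 17 tested nuclear members rose in Ad-CTRL and 13 in Ad-FAT10, beside 16.2% and 12.9% of all tested genes. The genes Atp5g1, Atp5g2 and Atp5g3 encode the same rotor subunit c. Atp5g3 had the highest level per kilobase of exon (269.75 CPM per kb, against 42.8 for Atp5g2 and 30.3 for Atp5g1). The length is that of all annotated exons joined, 4912 bases for Atp5g1 and 1675 for Atp5g2. In total counts Atp5g1 (55472) stood above Atp5g2 (27066), so their order depends on this length. Atp5g3 rose from 513, 508, 492 and 418 CPM to 829.5, 829, 858 and 826 in Ad-CTRL and from 349, 365, 412 and 429 to 744, 640.5, 559 and 641.5 in Ad-FAT10. Its rises were 0.79 ± 0.11 (adjusted p = 1.8e-05) and 0.73 ± 0.11 (adjusted p = 6.2e-05). Atp5g1 rose by 0.30 ± 0.10 and 0.32 ± 0.10, and Atp5g2 rose in Ad-CTRL (0.35 ± 0.09) with 0.14 ± 0.09 in Ad-FAT10, which was not called. The catalytic subunits Atp5a1 and Atp5b rose in both (0.42 and 0.41, and 0.39 and 0.34). Atp5k, the membrane subunit e, rose by 0.54 ± 0.16 and 0.79 ± 0.16.

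The interaction, pemafibrate change in Ad-FAT10 minus that in Ad-CTRL, was called for none of the tested members, where 0.156% of all genes were called, 0.0271% positive and 0.129% negative. DESeq2 also called 0 members. Since Ubd also differed between Ad-FAT10 CMC and Ad-FAT10 Pema, drug and Ubd level cannot be told apart in the interaction. At an unadjusted p under 0.05, 7 nuclear members were positive and 1 negative, and 0 of the mitochondrial members reached it. The change was larger in Ad-FAT10 for 67 of 90 nuclear members, with a median difference of 0.15 log2 units, beside 7102 of 14770 and -0.01 over all tested genes. That median was 0.05 without Ad-FAT10 Pema replicate 1 and 0.24 without Ad-FAT10 Pema replicate 3, the ends of its range when 1 library was left out. The 4 libraries a group leave an SE of 0.11 to 0.60 log2 units on these differences, so small ones were not detectable at this depth. Across the 90 members the 2 sets of changes correlated with r = 0.851 (Pearson) and rho = 0.521 (Spearman), a description over genes that are not independent.

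**Figure D4:**
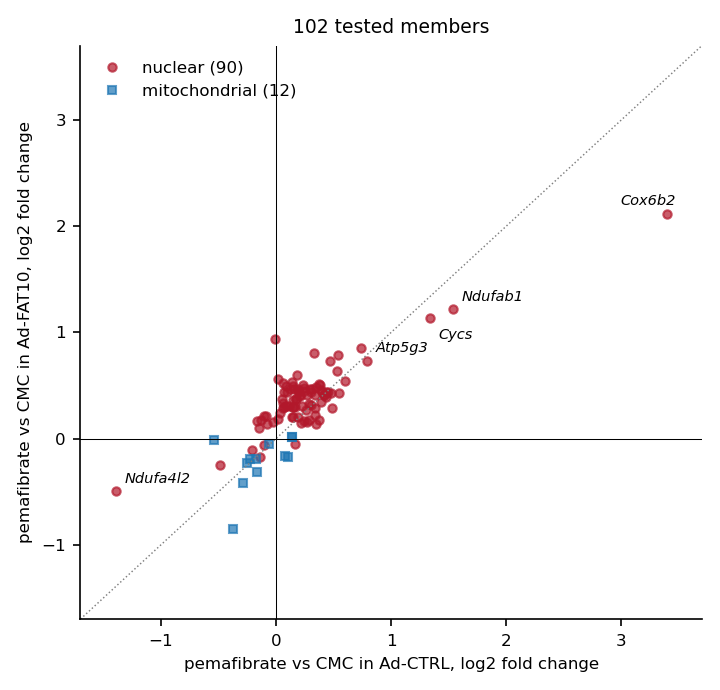
Log2 fold change with pemafibrate in Ad-CTRL (x axis) against that in Ad-FAT10 (y axis) for the tested members, with TMM scaling; the dotted line marks equal change. Ndufab1, Cycs and Atp5g3 lie high on both axes, Cox6b2 lies right of the line, and 67 of 90 nuclear members lie above it.

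Promoter sequence was read for the nuclear members to set beside their rise. RefSeq windows of 300 bases (GRCm38.p6) were matched for 77 of 95 nuclear symbols, giving 82 windows, and letters were searched on both strands. The palindromic NRF1 motif was present in 20 of 82 member windows (24.4%) and in 1512 of all 32851 windows. The shorter NRF1 form GCATGCGC, which overlaps it, was in 15.9% and 2.71%. The ETS motif CCGGAAG was in 22.0% and 8.86%, the YY1 motif AAGATGGC in 13.4% and 2.75%, the CRE motif TGACGTCA in 6.10% and 1.79%, and the direct repeat DR1 in one exact spelling, the kind of site PPARα is known to bind, in 0 of 82 and 0.0396%. That spelling occurred in only 13 of all 32851 windows, so its absence from the 82 carries no information on PPARα sites. Among tested members with a window, 5 of 19 with the palindromic NRF1 letters and 18 of 56 without them rose in Ad-CTRL, and 10 of 19 and 34 of 56 rose in Ad-FAT10. The median log2 changes were 0.21 and 0.22 in Ad-CTRL, and 0.38 and 0.39 in Ad-FAT10. The 56 include members that hold only the shorter NRF1 form, such as Cycs. A match is a description of letters and not of binding. Of the 82 windows, 73 ended inside a GRCm38 transcript of their own gene, and that of Cycs did not. The 250 bases before the RefSeq start of the 2 strongly raised members Ndufab1 and Cycs, and of Atp5k as a raised member with the NRF1 letters, read as follows on the coding strand, with the searched motifs in capitals (GCATGCGC and TGACGTCA in Cycs, GCGCATGCGC in Atp5k, none in Ndufab1).
Ndufab1, chr7:122101849-122102098, minus strand: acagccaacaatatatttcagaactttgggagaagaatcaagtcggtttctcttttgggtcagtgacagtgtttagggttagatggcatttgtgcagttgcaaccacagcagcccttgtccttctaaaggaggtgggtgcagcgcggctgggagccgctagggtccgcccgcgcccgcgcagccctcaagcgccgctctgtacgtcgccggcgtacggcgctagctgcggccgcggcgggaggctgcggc
Cycs, chr6:50566570-50566819, minus strand: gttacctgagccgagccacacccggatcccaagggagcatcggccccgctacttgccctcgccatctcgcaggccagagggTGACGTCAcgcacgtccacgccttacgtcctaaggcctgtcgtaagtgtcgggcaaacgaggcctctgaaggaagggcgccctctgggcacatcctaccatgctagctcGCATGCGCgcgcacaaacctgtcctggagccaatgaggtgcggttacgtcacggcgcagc
Atp5k, chr5:108434400-108434649, minus strand: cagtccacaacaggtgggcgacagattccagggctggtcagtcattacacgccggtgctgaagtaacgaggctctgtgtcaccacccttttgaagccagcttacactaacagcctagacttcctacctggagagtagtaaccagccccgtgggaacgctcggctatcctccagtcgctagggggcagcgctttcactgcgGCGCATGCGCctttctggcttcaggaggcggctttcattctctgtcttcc

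The Ad-FAT10 calls among nuclear members depended on the scaling. Under CMC, 68 of 90 fell and 1 rose with TMM, where 20.2% of all genes fell, 22.5% rose and 42.6% were called. With library totals alone 18 fell and 3 rose under CMC, where 1061 of all 14770 genes fell and 6365 rose. Under Pema, 45 fell and 1 rose with TMM, where 20.5% of all genes fell, 21.2% rose and 41.7% were called. With library totals alone 2 fell and 11 rose under Pema, where 826 of all 14770 genes fell and 7204 rose. Without Ad-FAT10 Pema replicate 3, 28 nuclear members fell under Pema with TMM. The median log2 change of nuclear members was -0.43 under CMC and -0.32 under Pema with TMM. With library totals alone it was -0.13 under CMC, below the 0.28 of all genes, and 0.04 under Pema, below the 0.34 of all genes. The Pema and CMC libraries of both viruses enter these comparisons too, so the Ad-FAT10 changes and the Pema changes above share libraries.

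By complex under CMC and with TMM, 29 of 36 nuclear subunits of complex I fell, and 4 of 4 of complex II. In complexes III, IV and V, 9 of 9, 12 of 15 and 10 of 17 fell, beside 20.2% of all tested genes. The 18 members that fell under CMC with either scaling came from complexes I to V and the complex I assembly factors. The largest of these falls was in Ndufa2, an accessory subunit of complex I. Its CPM went from 73.3, 71.2, 73.0 and 69.6 in Ad-CTRL CMC to 32.9, 38.1, 41.8 and 39.5 in Ad-FAT10 CMC, without overlap. The log2 change was -0.91 ± 0.12 (adjusted p = 1.8e-05), and -0.62 (adjusted p = 0.000712) with library totals alone.

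Uqcrb, the ubiquinol-binding subunit of complex III, fell from 81.5, 74.4, 71.7 and 70.3 CPM to 40.7, 41.7, 45.5 and 41.6 under CMC, by 0.81 ± 0.12 log2 units with TMM and by 0.52 with library totals alone. Cox7b, a small subunit of complex IV, held 220, 234, 219 and 143 CPM in Ad-CTRL CMC and 99.7, 109.8, 121 and 111 in Ad-FAT10 CMC (-0.89 ± 0.14 with TMM, -0.59 with totals). Within complex II, Sdhb (-0.63 and -0.34) and Sdhc (-0.53 and -0.24) fell with TMM and with totals. In complex V the same held for Atp5e (-0.72 and -0.43) and Atp5j2 (-0.78 and -0.48). Ndufaf6, an assembly factor, stood at 9.46 to 9.54 CPM in Ad-FAT10 CMC against 13.8 to 19.7 in Ad-CTRL CMC (-0.80 and -0.51).

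Under Pema, Ndufab1 fell with both scalings (-0.71 ± 0.12 with TMM, -0.36 with totals), and Ndufb10 did so as well (-0.62 ± 0.11 and -0.26). Cycs was called in neither Ad-FAT10 comparison, with 0.04 ± 0.15 under CMC and -0.16 ± 0.15 under Pema with TMM, and 0.34 and 0.19 with totals. Ndufa8 was called higher only with library totals (0.43 under CMC and 0.50 under Pema), against 0.13 and 0.14 with TMM. The same was true of Ndufv1, the NADH-binding core subunit, with 0.30 and 0.56 against 0.00 and 0.20.

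The 13 mitochondrial genes split by abundance into 7 with high counts and 6 near zero. Per kilobase of exon and averaged over all libraries, mt-Co1 stood at 14814 CPM per kb, mt-Cytb at 8778, mt-Nd2 at 7695.5, mt-Nd1 at 7154, mt-Nd6 at 3340.5, mt-Nd5 at 2823 and mt-Nd4 at 2513. On the same scale mt-Co2 stood at 5.42, mt-Co3 at 5.19, mt-Atp6 at 4.37, mt-Nd4l at 1.75, mt-Atp8 at 1.34 and mt-Nd3 at 1.22. Mitochondrial genes are known to be transcribed as long precursors that are then cut, and the gap was set beside the sequence of each gene. In the transcripts of the GRCm38 annotation, mt-Co2, mt-Co3, mt-Atp6, mt-Nd3 and mt-Nd4l match an unprocessed pseudogene at 99% identity or more over 681 of 684, 783 of 784, 678 of 681, 345 of 348 and 294 of 297 bases. The partner genes are Gm28661, Gm28437, Gm10925, Gm28438 and Gm10222. The same kind of match covers 63.6% of mt-Nd4 and 31.3% of mt-Co1 and none of mt-Nd1, mt-Nd2, mt-Nd5, mt-Nd6 or mt-Cytb. The sources used here do not say how reads with several matches were counted. The levels of the 5 genes are therefore uncertain, as in part are those of mt-Nd4 and mt-Co1. For mt-Atp8, with no such match among annotated transcripts, the only ones searched, 43 of 204 bases overlap mt-Atp6 on the same strand. The part of that overlap in the low count was not tested.

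**Figure D5:**
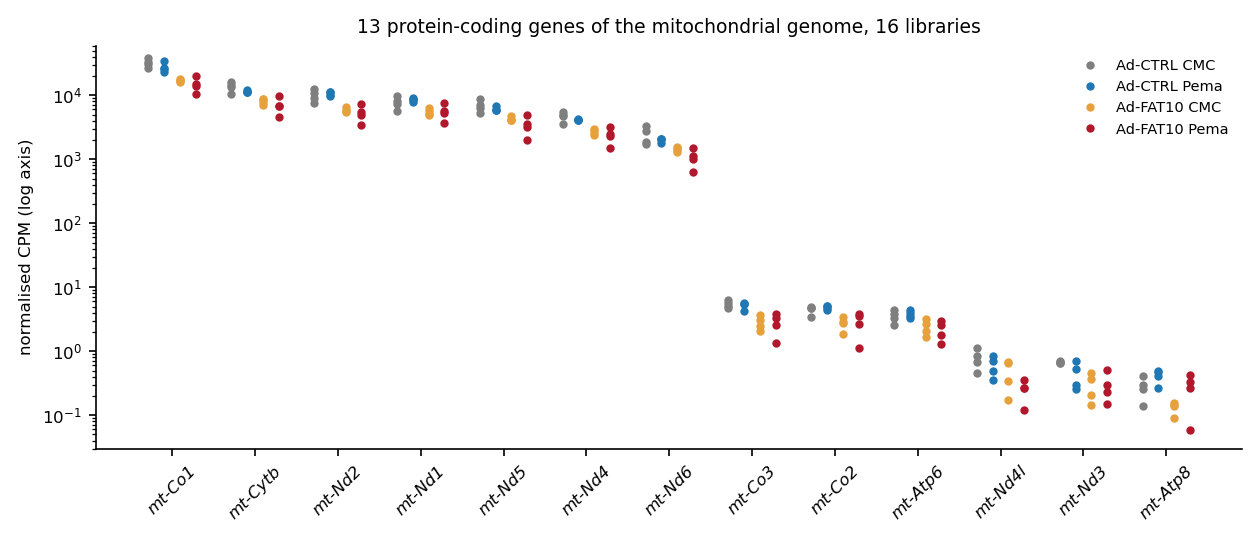
Normalised CPM (log axis) of the 13 mitochondrial protein-coding genes in 16 libraries, coloured by group and ordered by mean level. A wide gap separates 7 genes from 6, and among the 7 the Ad-FAT10 libraries lie lower with this TMM scaling; all 7 had negative log2 changes with library totals too.

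All 7 abundant mitochondrial genes fell with Ad-FAT10 under both treatments with TMM, by 0.49 to 0.92 log2 units under CMC and by 0.61 to 1.01 under Pema. With library totals alone, mt-Nd2, mt-Nd4 and mt-Co1 fell under both, mt-Cytb under CMC, and mt-Nd5 and mt-Nd6 under Pema. Counting all 12 tested mitochondrial members, 9 fell under CMC and 11 under Pema with TMM, where 20.2% and 20.5% of all tested genes fell. With library totals 5 and 5 fell, where 1061 and 826 of all 14770 genes did. The median log2 change of the 12 members was -0.76 under CMC and -0.82 under Pema with TMM, and -0.46 in each with totals.

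For complex IV, mt-Co1, the catalytic subunit, held 38244, 32690, 27010 and 30908 CPM in Ad-CTRL CMC and 17174, 16491, 18029 and 16306 in Ad-FAT10 CMC. The groups did not overlap (-0.92 ± 0.19 with TMM, adjusted p = 0.00086, and -0.63 with totals). Under Pema it held 33786, 25770, 23180 and 27076 CPM in Ad-CTRL and 20111, 13959, 10318 and 15133 in Ad-FAT10 (-0.88 ± 0.19 with TMM, adjusted p = 0.0012, and -0.54 with totals). Cytochrome b of complex III, mt-Cytb, fell by 0.75 ± 0.19 and 0.72 ± 0.19 with TMM, and with totals it had -0.45 (called) and -0.37 (adjusted p = 0.0824). In complex I, mt-Nd2 fell by 0.76 ± 0.19 and 1.01 ± 0.19 with TMM and by 0.47 and 0.66 with totals. The smallest falls with TMM were those of mt-Nd1 (0.49 ± 0.19, adjusted p = 0.046, and 0.61 ± 0.19), which with totals had -0.19 (adjusted p = 0.413) and -0.26 (adjusted p = 0.237) and was not called. With TMM the light-strand gene mt-Nd6 ranged from 1737 to 3355 CPM in Ad-CTRL CMC, from 1321 to 1529 in Ad-FAT10 CMC and from 631 to 1512 in Ad-FAT10 Pema, and its changes with totals were -0.47 (adjusted p = 0.0723) under CMC and -0.56 (called) under Pema. The strand setting of the counting is not given, so whether the mt-Nd6 counts include reads of the opposite strand is unknown.

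Tissue isoforms were rare in these livers. Cox4i2, Cox6a2 and Cox8b, the forms best known from lung and from muscle or heart, averaged 0.207, 0.116 and 0.0245 CPM and did not pass the filter on low counts, and Cox7b2, Cox8c and a second Atp5o identifier had no count. Their common counterparts are Cox4i1, Cox6a1 and Cox8a. Per kilobase of exon the pairs stood at 170.6 and 0.263 CPM per kb (Cox4i1 and Cox4i2), 407 and 0.171 (Cox6a1 and Cox6a2) and 323 and 0.0680 (Cox8a and Cox8b). Cox7a1, the muscle form, stood at 2.03 CPM per kb, against 127 for Cox7a2. With edgeR and TMM on all libraries it was called in none of the comparisons (0.60 ± 0.36 for Ad-FAT10 under Pema, called at 0.95 with library totals). Its pemafibrate change in Ad-FAT10 was 0.94 ± 0.36 (adjusted p = 0.0657) and was called in 5 alternatives, namely with DESeq2, with no filter, and without Ad-FAT10 CMC replicate 4, Ad-FAT10 Pema replicate 2 or Ad-FAT10 Pema replicate 3. Of 6 muscle and brown fat markers, Mb had no count and 1, Acta1, passed the filter. The list summed to 0 to 1.11 CPM in Ad-CTRL CMC, 0.0441 to 2.44 in Ad-CTRL Pema, 0.183 to 0.961 in Ad-FAT10 CMC and 0.618 to 1.63 in Ad-FAT10 Pema, which all overlap. Acta1, skeletal muscle actin, held 0 to 0.139 CPM in the Ad-CTRL libraries, 0.138 to 0.687 in Ad-FAT10 CMC and 0.309 to 1.34 in Ad-FAT10 Pema. Acta1 passed the filter on low counts only through Ad-FAT10 libraries, so it was tested because it was high there. Its calls with either scaling, higher with Ad-FAT10 under both treatments and with pemafibrate in Ad-FAT10, are therefore no independent support. The part of Acta1 in the isoform levels was not tested.

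Genes around the chain were read from lists chosen with earlier results known. Of 19 genes of the tricarboxylic acid cycle and pyruvate dehydrogenase, which make the NADH that complex I consumes, 11 rose in Ad-CTRL and 13 in Ad-FAT10 with pemafibrate, beside 16.2% and 12.9% of all tested genes. Suclg1, a subunit of succinyl-CoA ligase, rose by 0.72 ± 0.09 and 0.76 ± 0.09. Of 19 genes that feed electrons to ubiquinone or make it, 13 rose and 3 fell in Ad-CTRL, and 12 rose and 3 fell in Ad-FAT10. Etfdh, which passes electrons from fatty acid oxidation to ubiquinone, rose by 1.42 ± 0.13 and 1.16 ± 0.13. Gpd2, the mitochondrial glycerol-3-phosphate dehydrogenase, rose by 1.62 ± 0.15 and 1.12 ± 0.15, while Prodh, proline dehydrogenase, fell by 2.01 ± 0.20 and 1.77 ± 0.20.

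Of 31 tested genes for the expression of mitochondrial DNA, 11 rose and 2 fell with pemafibrate in Ad-CTRL, where 16.2% of all tested genes rose and 14.4% fell. In Ad-FAT10 12 rose and 0 fell, where 12.9% and 12.5% did. Tfam, the packaging and transcription factor of mitochondrial DNA, rose by 0.53 ± 0.12 and 0.47 ± 0.12, and Tfb2m, an initiation factor, by 0.55 ± 0.11 and 0.32 ± 0.11. The polymerase Polrmt was called in neither (0.26 ± 0.10 and 0.19 ± 0.10). Of 11 tested regulators, 5 rose and 1 fell in Ad-CTRL (median 0.24), and 1 rose and 1 fell in Ad-FAT10 (median 0.10). The one that fell was Ppargc1a, a coactivator known for driving mitochondrial biogenesis, by 0.74 ± 0.19 and 0.68 ± 0.19. Hif1a, a factor of the hypoxia response, rose by 0.54 ± 0.08 and 0.42 ± 0.08, and Nrf1 was not called (-0.09 and 0.08). Of 43 tested assembly factors from the wider list, 9 rose and 3 fell in Ad-CTRL and 10 rose and 1 fell in Ad-FAT10, beside the 16.2% and 12.9% of all tested genes that rose. The Ad-CTRL share was near that background. Cox19, one of the list, rose by 0.91 ± 0.13 and 0.74 ± 0.13.

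Among 10 tested genes of proton leak and exchange, 5 rose in Ad-CTRL and 6 in Ad-FAT10 with pemafibrate. Over all tested genes 16.2% and 12.9% did. Slc25a20, the carnitine carrier, rose by 1.499 ± 0.11 and 1.54 ± 0.11, and the uncoupling protein Ucp2 by 1.20 ± 0.17 and 0.85 ± 0.16. Neither was the largest log2 change on the list, which was 5.87 in Ad-CTRL and 4.53 in Ad-FAT10. With Ad-FAT10, 3 of this list rose under CMC and 4 under Pema with TMM, beside 22.5% and 21.2% of all tested genes. With library totals alone 6 and 6 rose, beside 6365 and 7204 of all 14770. Slc25a4, the adenine nucleotide translocator of muscle and heart, was among them (0.89 ± 0.15 and 1.18 ± 0.14 with TMM, 1.18 and 1.53 with totals). So was Atpif1, the inhibitor of complex V (0.999 ± 0.24 and 1.53 ± 0.25 with TMM, 1.299 and 1.89 with totals). Of the 43 assembly factors, 2 rose and 20 fell with Ad-FAT10 under CMC with TMM, and 13 rose and 5 fell with totals. Of the 19 cycle genes, 0 rose and 5 fell with TMM, and 9 rose and 1 fell with totals. Over all genes 22.5% rose and 20.2% fell with TMM, and 6365 rose and 1061 fell with totals.

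Markers of several cell types differed between the virus groups. Over all tested genes, 22.5% rose and 20.2% fell with Ad-FAT10 under CMC with TMM, and 21.2% and 20.5% under Pema. With library totals alone 6365 of all 14770 rose and 1061 fell under CMC, and 7204 and 826 under Pema. Hepatocyte markers such as Alb defined the tissue: the 10 summed to 84369 to 112270 CPM in Ad-CTRL CMC, 70443 to 98134 in Ad-CTRL Pema, 57997 to 68418 in Ad-FAT10 CMC and 41765 to 61758 in Ad-FAT10 Pema. With Ad-FAT10, 7 of 10 fell under CMC and 8 under Pema with TMM, beside 20.2% and 20.5% of all tested genes, and 5 fell and 1 rose under each with library totals. With TMM, 5 and 6 fell with pemafibrate in Ad-CTRL and Ad-FAT10, beside 14.4% and 12.5%. Of 10 neutrophil markers 6 were tested, and 6 rose with Ad-FAT10 under CMC and 5 under Pema with TMM (6 and 6 with totals), with summed levels of 8.13 to 16.7 CPM in Ad-CTRL CMC and 38.1 to 119.5 in Ad-FAT10 CMC. Of 8 markers of recruited macrophages and monocytes, 7 rose under each treatment with TMM and 8 with totals, from sums of 128 to 174 CPM in Ad-CTRL CMC to 292 to 371 in Ad-FAT10 CMC. In Ad-FAT10, 6 of 6 tested neutrophil markers fell with pemafibrate, beside 12.5% of all tested genes, and summed to 17.8 to 26.4 CPM. A marker low in Ad-CTRL can pass the filter on low counts only through Ad-FAT10 libraries, and is then tested because it is high there. How many of these 6 did so was not counted, so their calls are no independent support. Of 8 T and NK cell markers, 6 rose under each treatment with TMM and 7 with totals. Of 7 Kupffer cell markers, 1 rose and 4 fell under CMC and 1 rose and 5 fell under Pema with TMM (medians -1.33 and -1.35). With totals, 2 rose and 3 fell under CMC, and 1 rose and 3 fell under Pema. With TMM the 7 summed to 514 to 619 CPM in Ad-CTRL CMC and 486 to 749 in Ad-FAT10 CMC, which overlap. Under Pema their sums, 447 to 533 CPM with Ad-CTRL and 409 to 518 with Ad-FAT10, overlapped too. Of 4 tested B and plasma cell markers, 3 and 3 fell with TMM, and 3 and 1 with totals. Of 6 endothelial markers, 3 and 3 fell with TMM, and with totals 3 fell under CMC while 2 rose and 2 fell under Pema. Of 5 stellate markers, 3 fell under CMC, and 1 rose and 2 fell under Pema with TMM; 1 rose and 1 fell, and 1 rose and 2 fell, with totals. Of 4 cholangiocyte markers, 1 and 0 rose with TMM, and 1 and 2 with totals, near or below the shares of all tested genes. Of 3 tested erythroid markers, 1 fell under each treatment with either scaling. No marker on these 10 lists was at 0 in every library. The part of these cell types in the changes of the chain was not tested.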

How the data were processed

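Poly(A) RNA from 16 livers was sequenced as strand-marked libraries on a DNBSEQ instrument, per the labels' protocols. The deposited files hold raw counts per gene for each library, and the authors used the GRCm39 build with STAR (2.7.6) and DESeq2 (versions 2.11.40.6 and 1.36.0), per the submitters' processing notes. The sources used here do not give the counting program, the annotation or the strand setting.

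Symbols were matched for 52083 of 55416 gene identifiers (94.0%). Counts were filtered with filterByExpr, scaled by TMM and tested with edgeR 4.0.16 (quasi-likelihood, R 4.3.3) on 4 group means over 16 libraries. There were 12 residual degrees of freedom, and p-values were Benjamini-Hochberg adjusted over 14770 genes. The SE is the log2 change divided by the root of F. The fit was also run on simulated counts to check the code, which says nothing about these livers. Mice were separate animals and the labels name no batch.

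Members and lists were chosen with earlier results of these data known. Named genes were all mitochondrial members, the largest called changes, the smallest p by complex and comparison, the paralogue sets, and up to 4 genes per list. Other genes were named for their role after their values were seen, among them Ndufs1, Ndufa3, Ndufaf4, Ndufaf5, Sdha, Cyc1, Uqcr10, Uqcrq, Cox5a, Atp5a1, Atp5b, Atp5e, Atp5j2, Ndufb10, Ndufa8, Ndufv1, Tfam, Polrmt, Ppargc1a, Nrf1, Alb and Mb. Alternatives were DESeq2 1.42.0, RLE factors, library totals alone, TMM without mitochondrial genes, no filter, 2-group fits, a replicate block and leaving out each library.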

Additional observations from a re-analysis of the deposited data

Results flagged for a closer look

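Each group of 4 libraries was searched for a library standing far from the other 3 (by Dixon's gap-to-range test), and 12 of 224 groups had one. Chance flags about 1 in 20 groups. Ad-CTRL CMC replicate 4 was low in the nuclear sum, at 12028 CPM against 13525 to 13757 in the others, in Cox7b (143 CPM against 219 to 234) and in Ndufb11 (105.35 against 122 to 125). Ad-CTRL CMC replicate 3 was low in mt-Co2 (3.37 CPM against 4.68 to 4.87).

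Ad-CTRL Pema replicate 4 was high in mt-Cytb, the one mitochondrial member of complex III, at 12108 CPM against 11192 to 11262, and in mt-Nd5 (6743 against 5821 to 5898). Ad-CTRL Pema replicate 3 was low in mt-Nd6 (1770 CPM against 2068 to 2092) and in mt-Co3 (4.19 against 5.50 to 5.65), and high in Atp5g3 (858 against 826 to 829.5). Ad-CTRL Pema replicate 1 was high in Ndufa2 (94.0 CPM against 69.9 to 72.7). Ad-FAT10 CMC replicate 1 was high in mt-Nd5 (4793 CPM against 4047 to 4164).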

How the results depend on the processing

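The Pema counts of nuclear members kept their direction under every alternative run, and 21 to 29 rose in Ad-CTRL and 47 to 58 in Ad-FAT10 when no library was left out. Scaling by library totals alone changed the Ad-FAT10 comparisons. Under CMC it gave 3 nuclear members higher and 18 lower, a nuclear median of -0.13, and 5 mitochondrial members lower. Under Pema it gave 11 nuclear members higher and 2 lower, a nuclear median of 0.044, 5 mitochondrial members lower and a mitochondrial median of -0.46. It also reversed Cox8a (0.046) and Atp5g2 (0.044) under Pema, neither called. Over all genes it called 6365 higher and 1061 lower under CMC, against 3316 and 2977 with TMM, and 7204 and 826 under Pema, against 3136 and 3024. TMM without mitochondrial genes raised the summed mitochondrial CPM of Ad-FAT10 CMC to 47760, since those genes then leave the denominator. Over all genes the interaction had 4 positive and 19 negative calls with edgeR, 38 and 81 with DESeq2, 28 and 65 with no filter, and 0 and 16 with the replicate block.

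Leaving out 1 library at a time, 20 to 33 nuclear members rose with pemafibrate in Ad-CTRL. In Ad-FAT10, 35 to 62 rose (35 without Ad-FAT10 Pema replicate 1), 0 to 1 fell (Ndufa4l2, -0.80, without Ad-FAT10 Pema replicate 3), and 0 to 2 mitochondrial members fell. For Ad-FAT10 against Ad-CTRL, 57 to 70 nuclear and 7 to 10 mitochondrial members fell under CMC. Under Pema 28 to 62 nuclear members fell (28 without Ad-FAT10 Pema replicate 3), 1 to 2 rose, and 10 to 11 mitochondrial members fell. The call of mt-Nd1 under CMC was lost in 13 alternatives. Same-numbered libraries of different groups did not deviate together (r from -0.172 to 0.172 over 24 pairs, and 5 of 16 libraries correlated best with their own number), so the numbers were not taken as pairs. With the replicate block, nuclear counts were 27 higher and 2 lower with pemafibrate in Ad-CTRL, 51 and 0 in Ad-FAT10, and 67 and 44 lower with Ad-FAT10 under CMC and Pema. Low counts limit mt-Nd3, mt-Nd4l, mt-Atp8 and the tissue isoforms, which lie near the 3-count floor.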
